A study of Mus musculus with 16 samples.

Results

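Open chromatin at the 81 cytosolic ribosomal protein genes of the mouse was examined in 16 ATAC-seq peak lists. The genes were chosen by symbol out of 21887 protein-coding genes in RefSeq's gene table of mm10 (GRCm38.p6): Rpl or Rps followed by a number, with the suffix a, x, y or l where there is one, together with Rplp0, Rplp1, Rplp2 and Rpsa. Of these genes, 31 encode proteins of the small ribosomal subunit and 50 encode proteins of the large one. No measured value entered the choice. The genes lie on 19 chromosomes, with 14 on chromosome 7 and 4 on the X chromosome.

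ATAC-seq marks DNA that a transposase can reach, and a peak is a stretch with more insertions than the caller's background. All libraries came from one mouse embryonic stem cell (ESC) line with GFP knocked into Rx, a gene of the eye field, and there were 8 groups of 2 replicates. Embryoid bodies (EBs), grown by the SFEBq method with matrigel towards neural and retinal tissue, came from Wdr5 and p53 double knockout cells, whose labels give no day, and from parental cells, labelled day 4. ESCs kept in 2i and LIF were Wdr5 and p53 double knockouts stably transfected with WDR5 carrying S91K and Y191F (S91K-Y191F), with wild-type WDR5 (WDR5WT) or with the backbone plasmid; p53 knockouts of clone C9 and of clone H9; and the parental line. The series title calls the rescue protein human WDR5. All 3 transfected groups thus lack p53 as well as the mouse Wdr5 gene, C9 and H9 are 1 clone each, and the double knockout labels name no clone. The labels do not say that replicates were separate cultures, so differences are measured only against the spread between these libraries. In bulk libraries such as these, fewer cells with an open site and a less open site in each cell cannot be told apart.

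Ribosomal proteins assemble with ribosomal RNA into the small subunit, which reads the messenger RNA, and the large subunit, which joins amino acids. Their genes are among the most highly transcribed in dividing cells, and many hold small nucleolar RNA (snoRNA) genes in their introns. Most of their messenger RNAs start with a C and a run of pyrimidines, the 5′ terminal oligopyrimidine tract, through which growth signals set their translation. WDR5, a scaffold subunit of the MLL and COMPASS histone methyltransferases, is known from other cells to bind a conserved subset of these genes. Several ribosomal proteins of the large subunit, Rpl5, Rpl11 and Rpl23 among them, can bind MDM2 and so stabilise p53 when ribosome assembly fails.

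The promoters of 6 genes are shown because the results below turn on them. RefSeq's promoter table (GRCm38.p6) gave a start site and a promoter for 61 of the 81 genes. Each sequence runs 5′ to 3′ on the gene's strand from 250 bases before the annotated start to 50 after it. Capitals mark matches, on either strand, to 7 motifs and, on the gene's strand only, a pyrimidine run at the start. The motifs were the ETS core CCGGAAG, YY1 AAGATGGC, the Sp1 GC box GGGCGG, the CCAAT box CCAAT, the E-box CACGTG, the NRF1 palindrome and the TATA box TATAAA. The run was a C within 5 bases of the start followed by at least 5 bases that are C or T. No marked matches overlap in these 6 sequences, and a match is a description of letters, not a bound site.

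Rpl35, chr2:39005082-39005381, minus strand, with a peak over the promoter in 14 of 16 lists and a pyrimidine run of 11 bases.
Rpl35: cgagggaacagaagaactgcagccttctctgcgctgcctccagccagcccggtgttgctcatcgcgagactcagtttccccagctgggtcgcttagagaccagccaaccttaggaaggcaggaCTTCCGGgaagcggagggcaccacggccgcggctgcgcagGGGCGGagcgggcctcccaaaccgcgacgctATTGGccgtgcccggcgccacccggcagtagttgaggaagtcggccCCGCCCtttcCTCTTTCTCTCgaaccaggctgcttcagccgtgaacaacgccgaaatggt
Rpl39, chrX:37085173-37085472, minus strand, with a peak in 11 lists, none of them from cells without wild-type WDR5 among the ESCs.
Rpl39: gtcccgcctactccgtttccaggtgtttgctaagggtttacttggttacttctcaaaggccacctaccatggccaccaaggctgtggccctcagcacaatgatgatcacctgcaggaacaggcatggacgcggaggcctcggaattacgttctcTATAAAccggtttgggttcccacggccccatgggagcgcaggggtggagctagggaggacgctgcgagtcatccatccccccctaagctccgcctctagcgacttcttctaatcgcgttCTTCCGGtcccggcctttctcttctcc
Rpl39l, chr16:10169978-10170277, plus strand, the autosomal paralogue of Rpl39, with a peak in the 2 double knockout EB lists and no other.
Rpl39l: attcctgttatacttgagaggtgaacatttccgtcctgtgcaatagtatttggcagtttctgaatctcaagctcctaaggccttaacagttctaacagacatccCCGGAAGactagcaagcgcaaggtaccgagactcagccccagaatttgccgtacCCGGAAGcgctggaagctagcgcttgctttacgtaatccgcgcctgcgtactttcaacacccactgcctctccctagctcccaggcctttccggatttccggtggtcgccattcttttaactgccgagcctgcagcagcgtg
Rpl10l, chr12:66284352-66284651, minus strand, the autosomal paralogue of Rpl10, with a peak in 13 lists.
Rpl10l: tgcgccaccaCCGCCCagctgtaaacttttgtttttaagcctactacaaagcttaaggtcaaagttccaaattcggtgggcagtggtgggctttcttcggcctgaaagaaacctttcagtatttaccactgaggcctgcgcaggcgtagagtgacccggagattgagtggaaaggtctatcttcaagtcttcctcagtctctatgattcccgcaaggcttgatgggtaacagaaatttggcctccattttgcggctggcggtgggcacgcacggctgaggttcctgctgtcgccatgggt
Rps2, chr17:24719813-24720112, plus strand, with a peak in 12 lists but no gene end peak in any, and a pyrimidine run of 6 bases.
Rps2: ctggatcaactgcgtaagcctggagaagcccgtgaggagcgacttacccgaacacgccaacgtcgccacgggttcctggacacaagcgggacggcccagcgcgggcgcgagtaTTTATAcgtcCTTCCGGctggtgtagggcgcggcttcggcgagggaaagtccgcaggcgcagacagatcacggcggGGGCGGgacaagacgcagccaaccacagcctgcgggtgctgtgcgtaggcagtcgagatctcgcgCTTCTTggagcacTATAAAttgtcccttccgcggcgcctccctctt
Rpl6, chr5:121204251-121204550, plus strand, with a peak in the 4 EB lists and in no ESC list.
Rpl6: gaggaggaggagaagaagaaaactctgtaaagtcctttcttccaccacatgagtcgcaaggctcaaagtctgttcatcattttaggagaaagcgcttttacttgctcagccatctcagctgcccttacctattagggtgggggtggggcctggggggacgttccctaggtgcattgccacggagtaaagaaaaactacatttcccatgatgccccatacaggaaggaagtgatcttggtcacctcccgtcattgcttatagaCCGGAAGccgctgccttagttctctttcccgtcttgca

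Over the 61 promoters, the pyrimidine run and the ETS core were the features found at a higher share than over all genes by the widest margin. The run was present in 25 promoters (41.0%), against 10.01% of all 17492 promoters in the table. Promoters of mitochondrial ribosomal protein genes, which encode the separate ribosome of that organelle, had it in 5.80%, those of proteasome subunit genes in 9.38% and those of translation factor genes in 14.5%. An ETS core was in 24 promoters (39.3%), against 11.9% of all promoters, and here the mitochondrial ribosomal protein genes were close at 34.8%. The YY1 motif was in 8.20% of promoters, against 3.21% of all. The Sp1 GC box was in 57.4%, against 46.3%, with a median GC content of 57.0% against 56.3%. The CCAAT box (31.1% against 39.2%), the E-box (8.20% against 7.91%), NRF1 (1.64% against 1.33%) and the TATA box (11.5% against 13.3%) were at shares near or below those of all promoters.

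**Figure D1:**
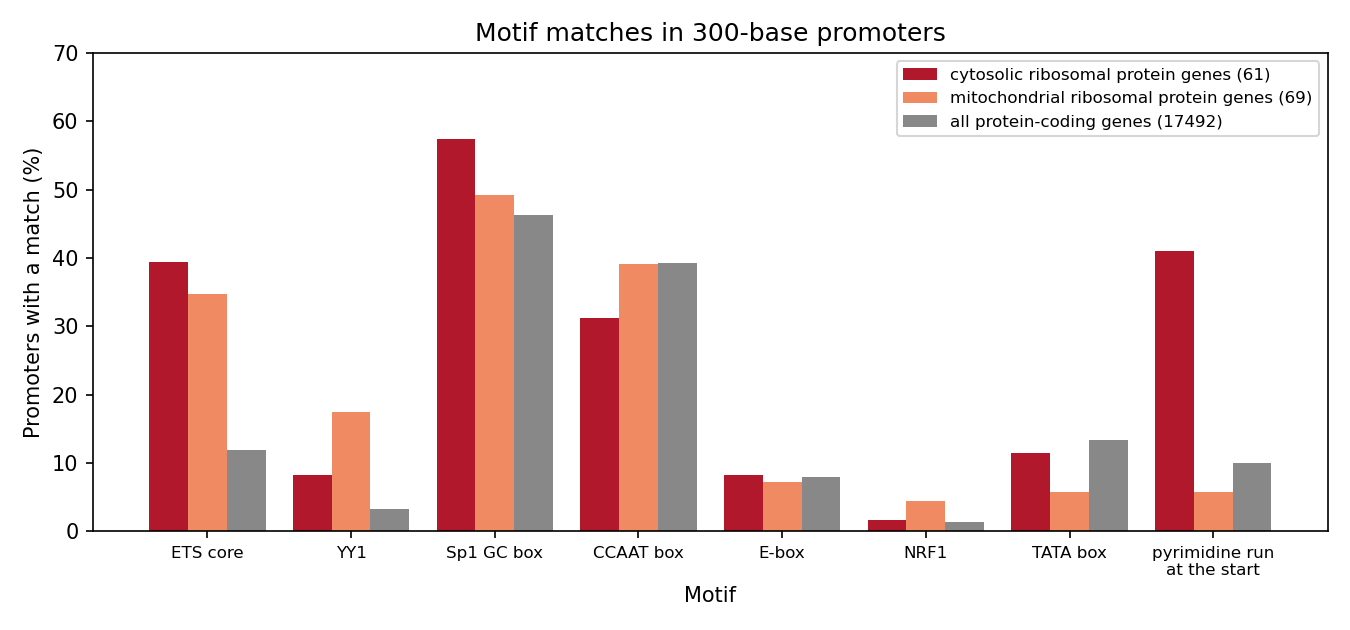
Share of 300-base promoters with at least 1 match to each motif (y axis, %), for cytosolic ribosomal protein genes, mitochondrial ribosomal protein genes and all protein-coding genes. The pyrimidine run stands at 41.0% in cytosolic ribosomal protein genes and at 5.80% in mitochondrial ones, while the ETS core is at 39.3% and 34.8%.

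A gene end peak was counted where a peak lay within 1000 bp of either end of a gene, since the gene table gives no strand. In EBs nearly every ribosomal protein gene had one: 75 and 76 of 81 in the double knockout lists (92.6% and 93.8%) and 76 in each parental list (93.8%). In ESCs the number varied widely, also between replicates. S91K-Y191F lists held 20 and 53 of the genes, WDR5WT lists 65 and 69, backbone lists 1 and 3, C9 lists 56 and 57, H9 lists 65 and 64, and parental lists 64 and 16. The lists themselves held 78106 and 93646 peaks in double knockout EBs, 90436 and 75673 in parental EBs, 5174 and 16257 in S91K-Y191F, 29779 and 32709 in WDR5WT, 1535 and 2492 in backbone, 26305 and 31782 in C9, 30780 and 31130 in H9, and 24367 and 5330 in parental ESCs. The number of reads is unknown, since the lists hold no counts, and so the part that depth plays in list length was not tested.

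Set against all protein-coding genes, the ribosomal protein genes were found more often in every group but the backbone ESCs. The ratio of the 2 shares averaged 1.42 ± 0.015 in double knockout EBs and 1.42 ± 0.021 in parental EBs (SD, n = 2 each, here and below). Among ESCs it was 1.91 ± 0.037 in S91K-Y191F, 1.59 ± 0.051 in WDR5WT, 0.87 ± 0.17 in backbone, 1.60 ± 0.013 in C9, 1.64 ± 0.032 in H9 and 1.77 ± 0.24 in parental cells. Backbone lists held end peaks at 1.23% and 3.70% of the ribosomal protein genes and at 1.25% and 4.91% of all genes. In EBs and in the WDR5WT, C9 and H9 ESC lists the excess was not particular to cytosolic ribosomal protein genes. In C9 ESCs these genes were at 69.1% and 70.4%, against 43.0% and 44.3% of all genes. Mitochondrial ribosomal protein genes were there at 70.5% and 70.5%, proteasome subunit genes at 71.8% and 69.2%, and translation factor genes at 73.2% and 78.9%. In WDR5WT and H9 lists these 3 other lists were at 74.4% to 90.1%, beside 79.0% to 85.2%. In parental EBs, 94.9% and 96.2% of 78 mitochondrial ribosomal protein genes, 92.3% and 89.7% of 39 proteasome subunit genes and 93.0% and 94.4% of 71 translation factor genes had an end peak. In the short lists of S91K-Y191F replicate 1 and parental ESC replicate 2, proteasome subunit genes were at 7.69% and 10.3%. There all genes were at 13.1% and 12.4%, mitochondrial ribosomal protein genes at 20.5% and 15.4% and translation factor genes at 22.5% and 29.6%.

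**Figure D2:**
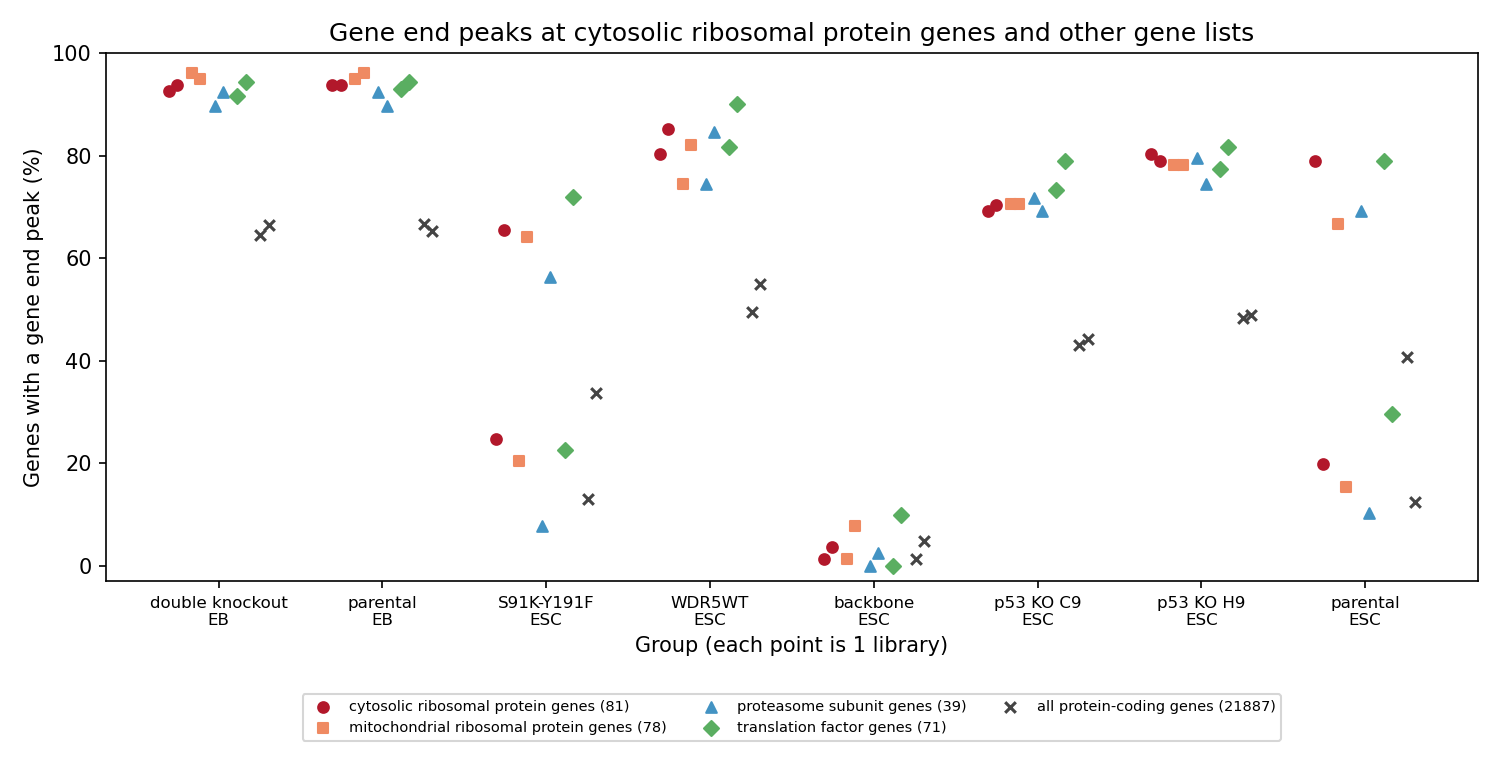
Share of genes with a gene end peak (y axis, %) in each library, by group (x axis), for cytosolic ribosomal protein genes, 3 other lists and all protein-coding genes; each point is 1 library. Cytosolic ribosomal protein genes lie at 92.6% to 93.8% in the 4 EB lists and at 1.23% and 3.70% in the backbone ESC lists. The other 3 lists lie at 89.7% to 96.2% and at 0.0% to 9.86% there.

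In EBs the large subunit genes were found at slightly higher shares than the small subunit genes, in H9 ESCs at lower ones, and in the other groups the shares of the 2 subunits overlapped. Small subunit genes had end peaks at 28 and 28 of 31 in double knockout EBs, against 29 and 29 in parental EBs, and large subunit genes at 47 and 48 of 50, against 47 and 47. In WDR5WT ESCs the shares were 80.6% and 83.9% for the small subunit and 80.0% and 86.0% for the large one. In H9 ESCs they were 90.3% and 83.9% for the small subunit and 74.0% and 76.0% for the large one. The stalk of the large subunit, which recruits translation factors, is built from Rplp0, Rplp1 and Rplp2, with end peaks in 11, 10 and 12 of the 16 lists. The MDM2-binding Rpl5, Rpl11 and Rpl23 had them in 12, 8 and 5 lists.

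Per gene, presence ran from 0 to 16 lists. Rps29, a zinc-binding protein of the small subunit, was the gene found in all 16 lists and the 1 gene in both backbone lists. Its ESC peak had an authors' signal of 803 and 2459 in S91K-Y191F, 2502 and 2338 in WDR5WT, 343 and 476 in backbone, 2224 and 2285 in C9, 2602 and 2631 in H9, and 2555 and 937 in parental ESCs. Signals are the authors' own values per peak, of unstated scaling, and no change between libraries is read from them. By rank within each list, where 100 is the strongest end peak of any gene, Rps29 lay at 89.0 and 98.1 in S91K-Y191F, 91.3 and 85.5 in WDR5WT, 60.4 and 74.8 in backbone, 92.8 and 90.5 in C9, 91.6 and 90.5 in H9 and 97.9 and 95.0 in parental ESCs. These lists hold very different numbers of genes (273 and 1074 in backbone, up to 12025 in WDR5WT), so no change between groups is read from these percentiles. Rpl15 was in 15 lists, with a peak in the second backbone list but not the first.

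**Figure D3:**
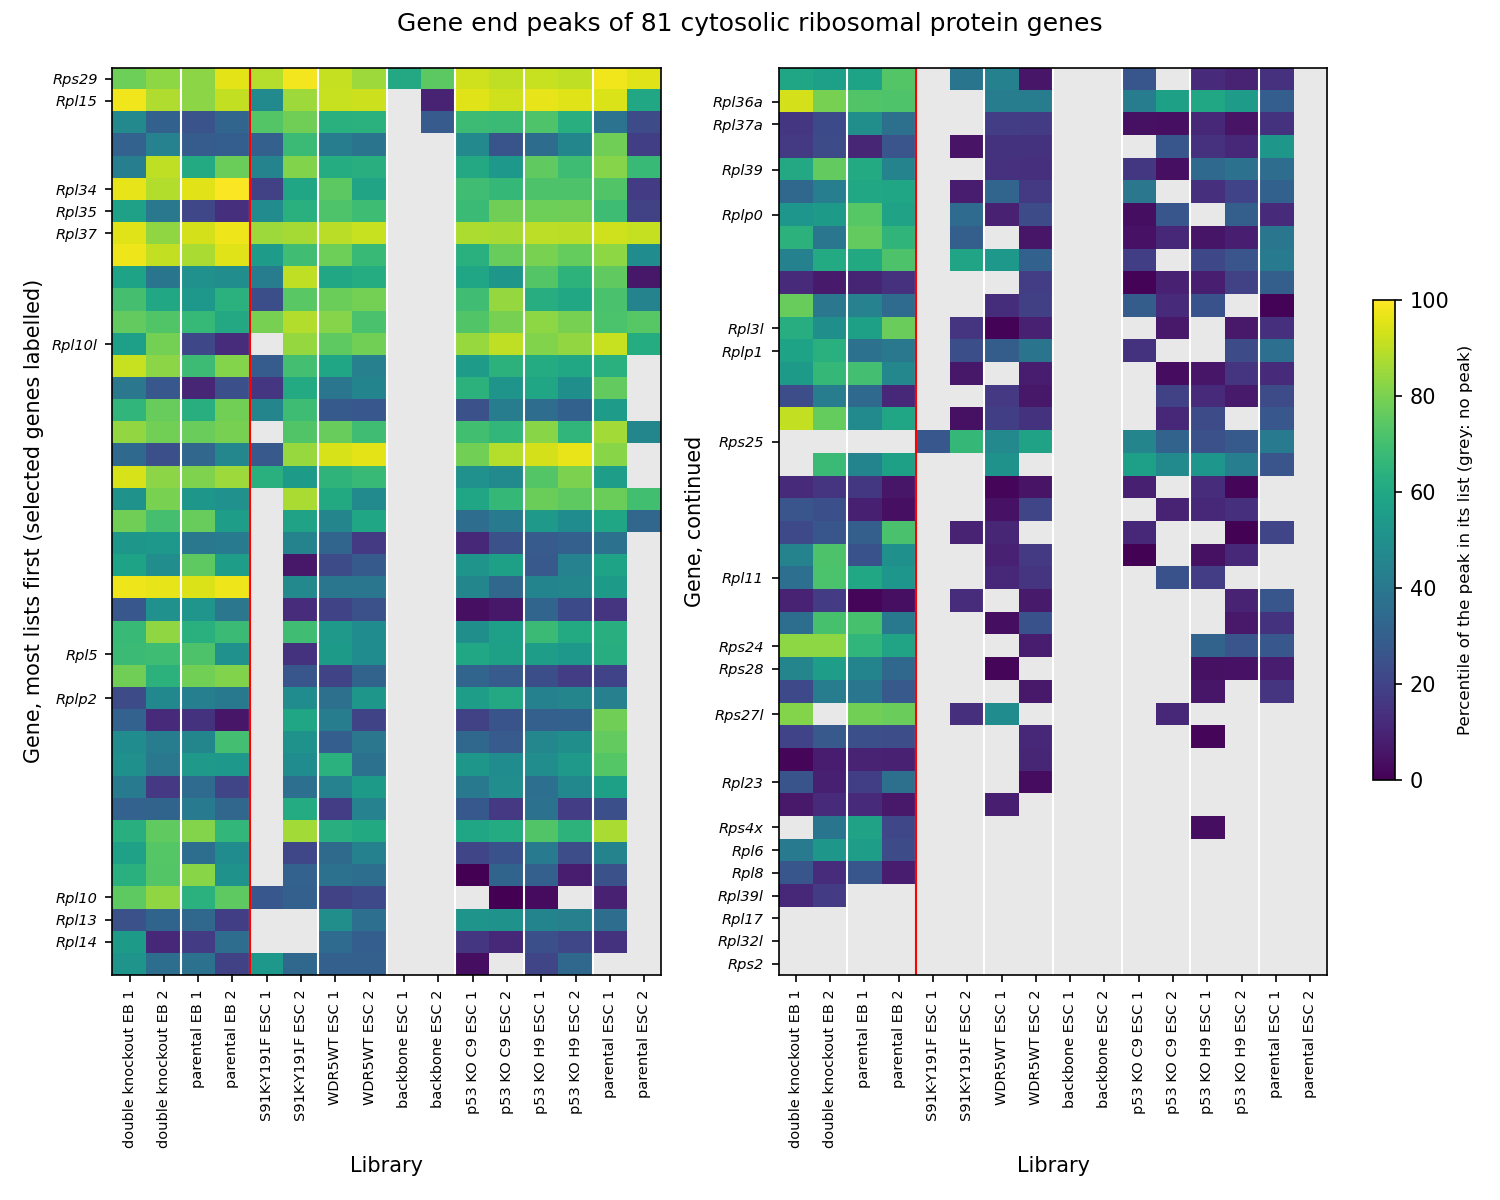
Gene end peaks of the 81 genes (rows, in 2 panels, ordered by the number of lists) in the 16 libraries (columns), coloured by the percentile of the peak among all genes with an end peak in that list; grey marks no peak, selected genes are labelled, and the red line divides EB from ESC lists. Rps29 has a peak in all 16 columns, and Rpl17, Rpl32l and Rps2 have none.

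The genes differed widely in how strong their peaks were, and the ESC and EB lists, which have different formats, are not compared in signal. The highest median percentiles over ESC lists were those of Rpl15 (92.4), Rps29 (90.9), Rpl37 (89.6), Rpl7 (88.7) and Rpl10l (84.0). Among the lowest were those of Rpl23 (3.1), Rps4x (3.7), Rps28 (4.7) and Rpl12 (5.1), and of these Rpl23 and Rps4x were in 1 ESC list each. Over the EB lists the highest were Rpl27 (96.9), Rpl34 (96.0), Rpl37 (94.5), Rps13 (92.9) and Rpl15 (89.5), and among the lowest were Rpl23a (6.95), Rpl19 (8.4), Rpl32 (9.4) and Rpl10a (11.3). Rpl15 and Rpl37 were thus high in both kinds of list. The median of the ribosomal protein genes with a peak was 52.3 and 53.1 in double knockout EBs, against 52.6 and 49.5 in parental EBs. In WDR5WT ESCs it was 39.3 and 36.0.

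Neighbouring genes limit what an end peak can be assigned to. Another gene's end lay within 1 kb of an end of 29 of the 81 genes, and 29 genes, counted separately, hold a snoRNA gene. Ribosomal protein genes also have many processed pseudogenes, and the treatment of reads that map to several places is not given in the sources used here.

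Of the genes with no gene end peak in any list, 2 had peaks at another place in the gene. Rps2, the small subunit protein at the entrance of the messenger RNA channel, had a peak over its annotated start at chr17:24720063 in 12 lists, all but backbone, S91K-Y191F replicate 1 and parental replicate 2. That start lies inside the gene span of the table (24718121 to 24721927), more than 1 kb from both ends. In Rpl17, a large subunit gene at the exit of the peptide tunnel on chromosome 18, peaks lay inside the gene span in the 4 EB lists and in both WDR5WT and both H9 lists, 1358 to 1442 bp from its nearest end. The third, Rpl32l, had none.

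A further 3 genes, Rpl6, Rpl8 and Rpl39l, had no end peak in any of the 12 ESC lists. Rpl6 and Rpl8, both of the large subunit, had one in all 4 EB lists. For Rpl6 the ratio of the peak over local background was 3.97 and 4.68 in double knockout EBs, against 4.90 and 3.73 in parental EBs, and the groups overlapped. In ESC lists the peak nearest to Rpl6 lay 10816 bp from the gene or farther, and that nearest to Rpl8 18795 bp or farther. Rps25, a small subunit protein used by viral internal ribosome entry sites, was the opposite case, with an end peak in 9 of 12 ESC lists and in none of the 4 EB lists. Its ESC signal was 276 and 838 in S91K-Y191F, 834 and 1234 in WDR5WT, 646 and 515 in C9, 474 and 550 in H9 and 549 in the first parental library. The nearest EB peak was 7141 to 7343 bp from the gene. Blacklisted regions had been removed from the EB lists, per their file names, and the part of that step in the absence was not tested. How many of all protein-coding genes were found in EB lists only or in ESC lists only was not counted. The EB lists held 14135 to 14607 genes with an end peak, and the ESC lists 273 to 12025. Presence in EB lists only or in ESC lists only is thus not read as particular to ribosomal protein genes.

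Paralogues that arose by gene duplication or retrotransposition behaved differently from one another. Rpl10l, an intronless copy of the X-linked Rpl10 known for its role in mouse spermatogenesis, had an end peak in 13 lists and Rpl10 in 11. In rank Rpl10l stood above Rpl10 in the ESC lists that held both. Its percentile was 84.1 in S91K-Y191F replicate 2, 75 and 78.6 in WDR5WT, 90.6 in C9 replicate 2, 81 in H9 replicate 1 and 91.5 in parental replicate 1. The percentiles of Rpl10 in those lists were 30.7, 19.9, 21.9, 0.4, 3.0 and 9.2. In the EB lists the order turned: Rpl10 was at 75.3 and 83.2 in double knockout and 63.7 and 75.4 in parental EBs, and Rpl10l at 56.6 and 79.1 in double knockout and 21.6 and 12.9 in parental EBs. Rpl3l, the striated muscle copy of Rpl3, had an end peak in 10 lists, but an end of Msrb1 lies within 1 kb and no peak covered the annotated start of Rpl3l in any list. Rps27l, a p53-inducible copy of Rps27 in human and mouse cells, had an end peak in 6 lists and a peak over its start in 12: the 4 EB lists, S91K-Y191F replicate 2, both WDR5WT, both C9, both H9 and parental replicate 1. Its start was thus open in lists from cells with and without p53.

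Between double knockout and parental EBs, 1 gene differed. Rpl39l, known from mouse testis as the copy of the X-linked Rpl39, had a peak in both double knockout lists, with ratios of 3.09 and 3.47 over local background, and in neither parental list. Both peaks were weak, at percentiles 11.3 and 17.3 of their lists. Of the 77 genes found in at least 1 EB list, 73 were found in all 4, and the other 3 (Rpl22, Rps4x and Rps27l) lacked an end peak in 1 double knockout list each. Yet Rps27l had a peak over its annotated start in all 4 EB lists. At Rpl22, overlapping peaks around an annotated start inside the gene also came from all 4. Of the 3, only Rps4x thus lacked a peak at its start, in double knockout replicate 1. No gene was found only in the parental lists. Over all protein-coding genes found in an EB list, 0.976% were found only in the double knockout and 1.15% only in the parental lists. With 2 libraries a group these counts have no test that could pass 0.05.

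Between backbone and parental ESCs, 13 genes were found in both parental lists and no backbone list, and none the other way round. Among them were Rpl10l, Rpl13a, Rpl27a, Rpl34, Rpl35, Rpl37, Rpl41, Rps13, Rps19, Rps21 and Rps23. That is 20.3% of the 64 genes in any of the 4 lists, and over all genes the share was 19.4%, with 0.0447% the other way. Without the short second parental list the count was 61, for which no share over all genes is given. Against the 4 p53 knockout lists, backbone lists lacked 43 genes that all 4 held and held none that they lacked. That is 59.7% of 72 genes, with 63.3% of all genes in that direction and 0.425% in the other. The first 12 by name were Rpl10a, Rpl10l, Rpl13, Rpl13a, Rpl14, Rpl18, Rpl21, Rpl22, Rpl24, Rpl27, Rpl27a and Rpl29. In both comparisons the share of ribosomal protein genes missing from the backbone lists was near that of all genes. The comparisons of backbone ESCs with parental, p53 knockout, WDR5WT and S91K-Y191F ESCs use the same 2 backbone libraries.

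In the rescue with wild-type WDR5, 57 genes were found in both WDR5WT lists and no backbone list, and none the other way round. They make 77.0% of 74 genes, and over all genes 77.4% were called in that direction and 0.389% in the other. The first 12 by name were Rpl10, Rpl10l, Rpl11, Rpl12, Rpl13, Rpl13a, Rpl14, Rpl18, Rpl21, Rpl24, Rpl26 and Rpl27. With S91K-Y191F WDR5, 17 genes were found in both lists and in no backbone list, and none the other way, and Rps29 was in all 4 lists. They make 32.1% of 53 genes, and over all genes 24.5% were called in that direction and 0.0 in the other. The first 12 by name were Rpl10, Rpl13a, Rpl21, Rpl27a, Rpl28, Rpl34, Rpl35, Rpl36, Rpl37, Rpl4, Rpl7 and Rps13. Among the rest was Rps19, whose human counterpart is mutated in Diamond-Blackfan anaemia. The S91K-Y191F peaks at an end of Rpl4 did not cover its promoter, and ends of Zwilch and Snapc5 lie within 1 kb. Without the short first S91K-Y191F list the count was 50, for which no share over all genes is given.

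Set directly against each other, S91K-Y191F and WDR5WT differed at 12 genes, all found in both WDR5WT lists and no S91K-Y191F list. They were Rpl11, Rpl12, Rpl13, Rpl14, Rpl26, Rpl31, Rpl36a, Rpl37a, Rpl39, Rps15, Rps27 and Rps9. That is 16.2% of 74 genes, with 27.9% of all genes in that direction and 0.642% in the other. Of the 60 genes in both WDR5WT lists, 20 (33.3%) were in both S91K-Y191F lists and 12 in neither. Over all 10569 such genes 26% were in both and 32.9% in neither. Without the longer second S91K-Y191F list the 12 became 40, for which no share over all genes is given.

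Rpl39 is given here library by library. Its peak had a signal of 357 and 403 in WDR5WT, 324 and 233 in C9, 607 and 693 in H9 and 485 in parental replicate 1, and no peak was listed in S91K-Y191F, in backbone or in parental replicate 2. The lowest signal the ESC lists hold is 200, and the percentiles of the Rpl39 peak in those 7 lists ran from 4.1 to 37.7. In EBs the ratio at Rpl39 was 4.50 and 5.52 in double knockout cells, against 5.09 and 4.47 in parental cells, and the groups overlapped.

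The same question across all ESCs, 4 libraries without wild-type WDR5 (S91K-Y191F and backbone) against 8 with it (WDR5WT, C9, H9 and parental), was tested per gene by Fisher's exact test over 12773 genes, with Benjamini-Hochberg adjustment. Of the 74 ribosomal protein genes found in an ESC list, 73 were in a smaller share of the libraries without wild-type WDR5 and none in a larger one. That is 98.6% of them, against 98.1% of all genes tested. No gene of any kind passed an adjusted p of 0.05 (0.0% called), and the smallest adjusted p was 0.112. With 4 against 8 libraries the smallest p that Fisher's exact test can give is 0.00202. Over 12773 genes the adjustment can then call a gene only where many genes share its pattern. The lack of calls therefore says little about single genes. By the unadjusted exact p, 9 ribosomal protein genes fell below 0.05, all in the direction of loss, which is 12.2% of the 74 against 14.1% of all genes. Rpl13, Rpl14, Rpl36a, Rpl37a and Rpl39 were in 0 of 4 against 7 of 8 libraries (two-sided exact p = 0.0101, adjusted 0.112). Rpl10l, Rpl41, Rps23 and Rps6, the last the substrate of S6 kinase, were in 1 of 4 against 8 of 8 (exact p = 0.0182, adjusted 0.128). The 9 became 0 at equal gene number and 0 with replicate pairs as units, where the smallest exact p is 0.0667. Without S91K-Y191F replicate 2, 25 ribosomal protein genes fell below 0.05, beside 4675 of all genes. Without parental replicate 2 the number was 29, beside 5623 of all genes. With all libraries it was 9, beside 1808 of all genes, so the count over all genes rose as well. The test counts the 2 libraries of a group as independent. Without the short parental replicate 2, the first 5 passed, at an adjusted p of 0.0337 by Fisher's exact test, together with 1147 genes in all.

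WDR5WT and the 4 p53 knockout libraries, which share the lack of p53 and differ in the source of WDR5, had 43 of 75 genes (57.3%) in all 6 lists, against 65.6% of all genes. No gene was found only in 1 of these groups, where the share over all genes was 1.98% for WDR5WT and 0.205% for p53 knockouts. Between p53 knockout and parental ESCs no gene was found only in 1 group either, against 8.18% and 0.647% of all genes. Without the longer first parental list, 30 genes were found only in p53 knockouts, and no share over all genes is given for that setting. The 16 genes in both parental lists were in all 4 p53 knockout lists, as were 95.8% of all genes in both parental lists. Between clones C9 and H9, a comparison added after the data were seen, 2 genes were in both H9 lists and no C9 list, Rps24 and Rps28, and none the other way, with 4.3% and 0.453% of all genes. Leaving out 1 of these libraries moved the 2 to between 4 and 8. Rps24 had a signal of 573 and 518 in H9, and Rps28 had 239 and 251.

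The lists were made equal in gene number by taking the same number of genes from each, those with the strongest end peak. This does not make depth equal. Short lists are then taken whole or nearly so (2868 genes in S91K-Y191F replicate 1), and long ones only in part (up to 12025 genes in WDR5WT). What part this has in the order of the groups was not tested. With 2705 genes (12.4% of all), the number in the second parental ESC list, S91K-Y191F lists held 20 and 19 ribosomal protein genes, WDR5WT 8 and 6, C9 6 and 9, H9 11 and 10 and parental ESCs 19 and 16. The S91K-Y191F and parental lists thus lay above the others with no overlap, at 19.8% to 24.7% of the 81 genes against 7.41% to 13.6%. Ranked by the authors' p, a ranking chosen after the data were seen, the numbers were 20 and 21, 10 and 8, 10 and 10, 15 and 12, and 18 and 16 in the same order of groups. With 7000 genes (32.0% of all), the second S91K-Y191F list held 51 and the first parental list 50, WDR5WT lists 36 and 28, C9 38 and 35 and H9 35 and 33. Translation factor genes were also more frequent there at 2705 genes by signal, at 16.9% and 28.2% in S91K-Y191F and 22.5% and 29.6% in parental ESCs against 12.7% to 18.3% in the WDR5WT, C9 and H9 lists, with overlap. Mitochondrial ribosomal protein genes were at 17.9% and 21.8% in S91K-Y191F and 17.9% and 15.4% in parental ESCs against 7.69% to 16.7%, so the order is not shown to be particular to cytosolic ribosomal protein genes. Proteasome subunit genes did not follow that order, at 7.69% and 15.4% in S91K-Y191F and 15.4% and 10.3% in parental ESCs, against 5.13% to 17.9%. Double knockout EB lists held 12 and 12 ribosomal protein genes at 2705 genes by ratio, against 7 and 8 in parental EBs. By the authors' p the numbers were 12 and 7 in double knockout and 8 and 9 in parental EBs, and the groups overlapped.

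**Figure D4:**
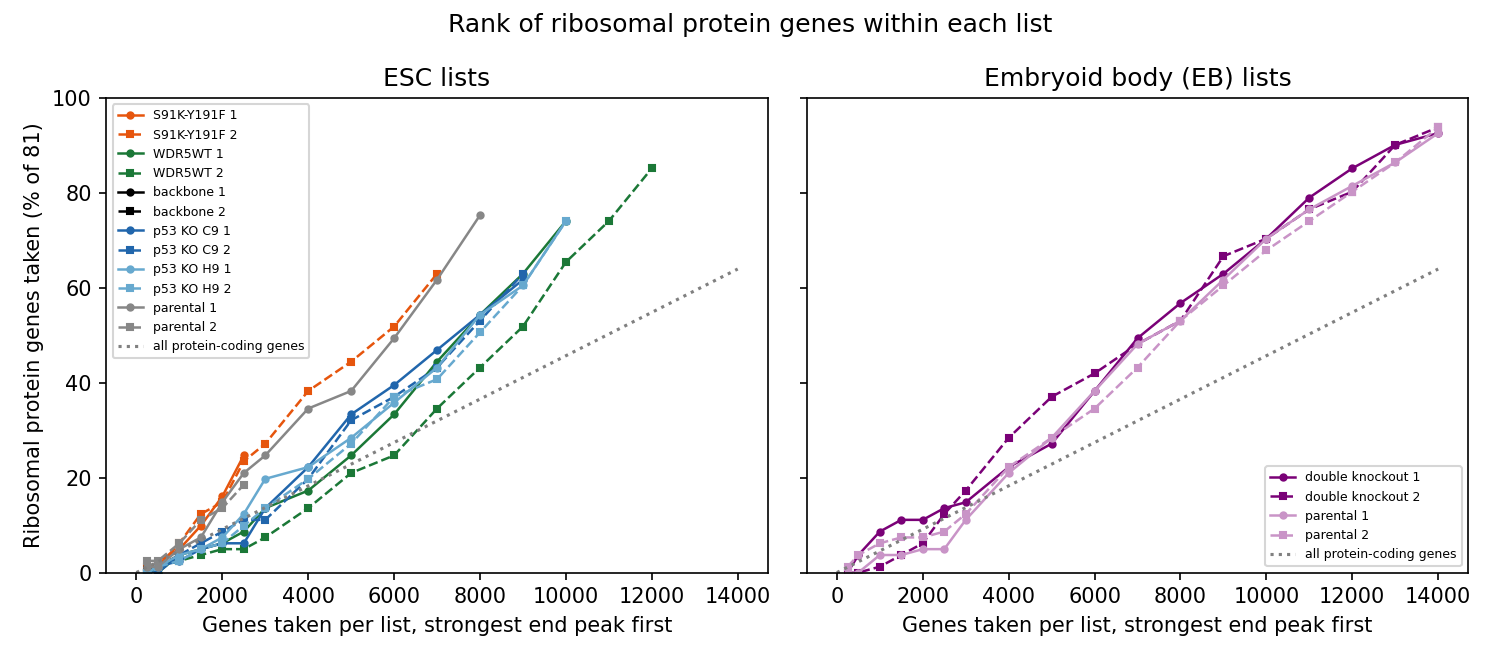
Share of the 81 genes (y axis, %) among the genes with the strongest end peaks as more genes are taken from each list (x axis), for ESC lists (left) and EB lists (right); the dotted line is the share of all protein-coding genes. From 1000 genes on, the S91K-Y191F and first parental ESC curves run above the WDR5WT, C9 and H9 curves, with 51 and 50 genes at 7000 against 28 to 38. At 250 and 500 genes these curves overlap.

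The groups that stood high in this measure include cells with wild-type WDR5 and p53 (parental) and cells with neither (S91K-Y191F), and the groups that stood low all had p53 deleted and wild-type WDR5 present. They also differ in another property of the lists. The widest peak was 29214 and 18810 bp in S91K-Y191F, 15914 and 7737 bp in WDR5WT, 7727 and 9090 bp in C9, 9210 and 15921 bp in H9 and 27707 and 27767 bp in parental ESCs. The part of that property in the result was not tested. At equal gene number (2868 genes a list), 8 genes were found in both S91K-Y191F lists and neither WDR5WT list (Rpl13a, Rpl21, Rpl27a, Rpl35, Rpl4, Rps19 and Rps25 among them) and none the other way. They make 30.8% of 26 genes, and over all genes 10.5% and 11.5% were called in these directions. Likewise no gene was found only in p53 knockouts and 3 only in parental ESCs (Rpl13a, Rpl34 and Rps19), which is 13.0% of 23 genes, against 5.21% and 6.18% of all genes. The direction between S91K-Y191F and WDR5WT is thus the reverse of that with full lists. For Rpl4, no S91K-Y191F or WDR5WT peak covered the promoter, and ends of Zwilch and Snapc5 lie within 1 kb of an end of Rpl4. Between double knockout and parental EBs, at 14135 genes a list, Rpl39l was again the 1 gene in the double knockout only and none was in the parental lists only (1.17% and 1.07% of all genes). At 9410 genes, Rpl10 was found only in WDR5WT and no gene only in p53 knockouts (0.676% and 0.852% of all genes). Between the clones, Rps26 was then found only in C9 and Rps24 only in H9 (1.83% and 1.84%).

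The backbone lists allow this only at 273 genes, too few to describe these genes: 1 or 2 of the 81 were taken in any list of each comparison. Rps29 was then found only in backbone against p53 knockout ESCs (16.1% of all genes, and 15.3% the other way). It was also found only in backbone against WDR5WT (17.8% of all genes only in WDR5WT and 16.6% only in backbone). Between S91K-Y191F and backbone no gene was found in 1 group only (4.13% and 6.19% of all genes), nor between backbone and parental ESCs (8.57% and 5.94%).

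Summits in the ESC lists were taken from the strongest peak within 1000 bp of the annotated start. Their nearness to the start is thus in part set by this choice, which was the same for all genes. In the WDR5WT, C9 and H9 lists the median summit was 3 to 48 bp upstream of the annotated start of the 61 genes with one, and 14 to 26 bp upstream over all genes. Between 54.9% and 61.2% of the ribosomal protein gene summits were within 100 bp of the start, against 47.9% to 53.7% of all summits. The median was 164 and 80 bp upstream in S91K-Y191F, from 12 and 35 peaks, and 51 and 15 bp in parental ESCs, against 66 and 43 bp in S91K-Y191F and 34 and 56 bp in parental ESCs over all genes. Peaks at these genes were narrower than those of all genes in EBs, with medians of 530 and 657 bp in double knockout and 678.5 and 593.5 bp in parental EBs, against 694 and 804 bp and 825 and 781 bp over all genes. The ESC lists had the same order, except S91K-Y191F replicate 2 (652 against 647 bp). In WDR5WT the medians were 802 and 816 bp, against 905 and 952 bp over all genes. Backbone medians rest on 1 and 3 ribosomal protein genes.

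**Figure D5:**
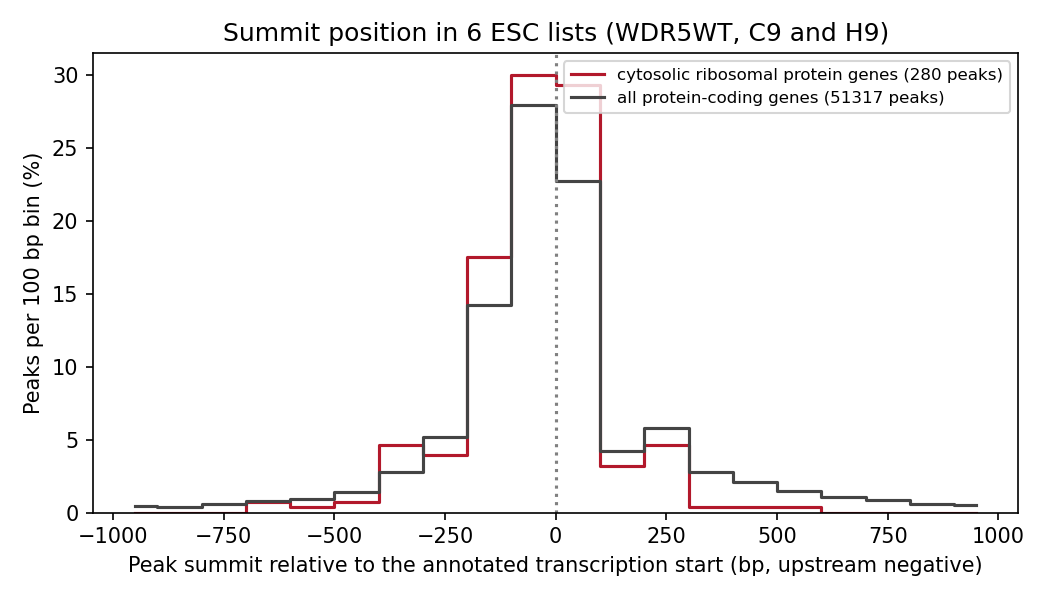
Position of the peak summit relative to the annotated transcription start (x axis, bp, upstream negative) as the share of peaks per 100 bp bin (y axis, %), over the WDR5WT, C9 and H9 ESC lists. Only the strongest peak within 1000 bp of each start was taken. Of 280 peaks at ribosomal protein genes, 30.0% and 29.3% fall in the bins just upstream and just downstream of the start.

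Around the genes, 443 of 163173 merged regions lay within 20 kb, and each gene had at least 1. Of these regions, 106 were at an end of a ribosomal protein gene, 103 at the end of another gene and 234 away from any end. The region at Rps29 was in all 16 lists. In EBs 234 regions were in all 4 lists. Of the 443, 231 (52.1%) were in no ESC list, against 68.0% of all regions, and 13 (2.93%) in no EB list, against 9.07% of all regions. Among the genes with the most regions were Rpl18 (12), Rpl19 (10), and Rpl22, Rplp2 and Rps19 (9 each).

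Between double knockout and parental EBs, 5 of 436 such regions (1.15%) were found only in the double knockout and 30 (6.88%) only in the parental lists. Over all 96472 regions of these lists within 20 kb of any protein-coding gene the shares were 3.62% and 4.64%. The 30 lay around 21 genes, with 4 at Rpl18, 3 at Rplp1 and 2 each at Rpl28, Rps13, Rpl19 and Rpl37, and 20 of them were away from any gene end. The 5 lay near Rps27, Rpl3l, Rpl36 and Rpl17 and at the start of Rpl39l, the promoter shown above. Regions in all 4 lists made 54.1%, against 33.3% of all regions within 20 kb of any protein-coding gene. Leaving out 1 library moved the double knockout count to between 11 and 27 and the parental count to between 39 and 73. Near these genes the EB lists held 282 and 314 regions in the double knockout and 359 and 325 in the parental cells. Between WDR5WT and p53 knockout ESCs, 2 of 203 regions (near Rplp2 and Rps25) were found only in WDR5WT and none only in p53 knockouts. The shares over all regions within 20 kb of any protein-coding gene were 3.14% and 1.5%.

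Genes just outside the naming rule had peaks in 0 to 13 lists: Rps3a1 in 12, Rpl22l1 and Rpl36al in 13 each, Rpl7l1 in 9, Rpl37rt in 2 and Rps27rt in none. Wdr5 itself had an end peak in all 4 EB lists, including the 2 of the double knockout, and in 1 WDR5WT list, and Trp53 in 9 lists. A peak at a gene end does not check a deletion inside the gene. Of 8 pluripotency marker genes, 6 and 6 had an end peak in double knockout EBs and 7 and 7 in parental EBs. In ESCs 1 and 4 did in S91K-Y191F, 6 and 6 in WDR5WT, 1 and 1 in backbone, 5 or 6 in each p53 knockout list and 6 and 2 in parental cells. Of 7 neuroectoderm markers, 5 and 6 had one in double knockout and 7 and 7 in parental EBs. Backbone lists had none, and the other ESC lists up to 4. Mesoderm and endoderm markers had an end peak at 4 and 4 of 5 in double knockout and 5 and 4 in parental EBs, and at 0 to 4 in ESC lists. All 4 fibroblast markers had one in each EB list, and 0 to 2 in ESC lists, so an end peak in the long EB lists does not tell these cell types apart.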

How the data were processed

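Chromatin accessibility was measured by ATAC-seq in 16 libraries (12 ESC, 4 EB) in 8 groups of 2. The submitters' processing notes name mm10, MACS2 2.1.2, Genrich 0.6, DESeq2, SAMtools and Bowtie2 2.3.5, without roles. The deposited ESC lists give a score, a signal of unstated scaling (at least 200), a −log10 p-value and a summit per peak, and their caller is not given in the sources used here. The deposited EB lists give a score, a fold-enrichment ratio and −log10 p- and q-values, and per the file names the authors removed blacklisted regions. No list holds read counts, so sequencing depth cannot be stated and intervals for counting error are not given.

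Peaks on the assembled nuclear chromosomes were matched to gene ends (within 1000 bp) of 21887 protein-coding RefSeq genes (GRCm38.p6). Where a gene had several end peaks, the strongest by the authors' signal or ratio counted. Regions were peaks merged at 1 bp of overlap. A gene or region was counted for 1 group where all its libraries had a peak there and those of the other group had none. Comparisons of 2 or 4 libraries have no test of their own. Fisher's exact test (scipy 1.17.1), two-sided with Benjamini-Hochberg adjustment, was run on ESC libraries without and with wild-type WDR5. It was tested on simulated lists. Alternatives were end windows of 500 and 2500 bp, the upper 50% of each list, equal gene number, regions within 10 kb or merged across 200 bp, transcription starts only and leaving out each library. Python 3.11.15 was used.

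The genes and lists were chosen with earlier results of these data known. The text names genes with no end peak, up to 12 per comparison and direction, those with peaks in all lists, up to 5 of the highest and of the lowest percentiles, those with the most regions, paralogues, genes just outside the rule, and Wdr5 and Trp53. The MDM2-binding and stalk genes, Rps25 and Rpl39 were chosen after their values were seen, as were the genes named among the 17 of S91K-Y191F. Some items are not reported here.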

Additional observations from a re-analysis of the deposited data

How the results depend on the processing

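With equal gene number in each list, the count found in 1 group only became 0 for parental over backbone, 0 for p53 knockout over backbone, 0 for WDR5WT over backbone, 0 for S91K-Y191F over backbone and 0 for WDR5WT over S91K-Y191F. The lists then held 273 genes where backbone was compared and 2868 for the last, where the direction turned. The count became 1 for backbone over p53 knockout and 1 for backbone over WDR5WT (Rps29 in both), 8 for S91K-Y191F over WDR5WT, 1 for WDR5WT over p53 knockout, 3 for parental over p53 knockout, 1 for C9 over H9 and 1 for H9 over C9. In the upper 50% of each list the counts were 8 for parental over backbone, 34 for WDR5WT over backbone, 6 for WDR5WT over S91K-Y191F, 4 for p53 knockout over parental ESCs and 2 for parental over double knockout EBs. The regions only in double knockout EBs numbered 3 there and 3 within 10 kb, and those only in WDR5WT against p53 knockout 4 and 1. With a 2500 bp window, 1 gene was found only in WDR5WT against p53 knockout.

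Leaving out each library in turn gave ranges of 0 to 2 for genes only in parental EBs, 13 to 61 for parental over backbone, 17 to 50 for S91K-Y191F over backbone, 12 to 40 for WDR5WT over S91K-Y191F, 0 to 2 for WDR5WT over p53 knockout and 0 to 2 for the reverse. It gave 0 to 30 for p53 knockout over parental ESCs, with 30 without parental replicate 1, 0 to 1 for C9 over H9 and 4 to 8 for H9 over C9. For regions the ranges were 11 to 27 only in double knockout EBs, 39 to 73 only in parental EBs, 2 to 20 only in WDR5WT and 0 to 3 only in p53 knockouts. Genes passing Fisher's exact test ranged from 0 to 5. Outside that test, counts with a library left out, the upper 50% or another window or distance have no share over all genes beside them. They are thus not read as particular to ribosomal protein genes. Of all values recomputed for comparisons, 147 stayed within 1.5 times and 59 moved further. Many of the 147 were counts of 0 that stayed 0, so the tally says little about the counts above 0. The cause was not tested where none is given.

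Replicate numbers come from the labels, which name no shared culture or day. With the replicate number as a block, Fisher's exact test called 0 ribosomal protein genes (smallest adjusted p 0.148), as without it. No paired analysis was possible because the other results are counts of genes with no test. Precision is limited by 2 libraries a group and by unknown depth: S91K-Y191F and parental ESC replicates differ several-fold in list length, and backbone lists are too short to show most genes, and a site without a peak and a library too shallow to show it cannot be told apart there.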
